A study of Mus musculus with 6 samples.

Results

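A set of 10 genes that mark the Tppp3 lineage and stem or progenitor cells of connective tissue, chosen by name, was followed in RNA-seq of sorted mouse Achilles tendon cells, and all of them were found by symbol among the 24413 genes of the deposited table. In the DRG CM group were 3 libraries of cells kept for 24 h in DRG CM, a medium in which cultured cells of dorsal root ganglia (the ganglia that house the cell bodies of sensory neurons) had grown. The control group held 3 libraries of cells kept for 24 h in medium with 1% FBS. All 6 libraries came from cells of Tppp3ECE/+;R26RtdT-CreERT2;Scx-GFP mice, male and aged 12 weeks, that had been sorted with gates for the tdT reporter of the Tppp3 lineage and the Scx-GFP reporter. Which GFP fraction was kept is not given in the labels used here. The DRG CM was made in medium with the same 1% FBS. Every library thus carried the Tppp3ECE allele on 1 Tppp3 copy, whatever the medium, and the labels do not say how much Tppp3 transcript that allele makes. A reporter switched on by CreERT2 marks cells in which the driver gene was active when tamoxifen was given, and their progeny, whether or not they still express it. The ganglia came from 3 male C57BL/6J mice aged 12 weeks, and the tendons from 3 mice. The submitters call the libraries biological replicates without saying which mouse gave which library. The p-values here therefore reflect library-to-library spread, and a share of that spread may be technical. The FPKM values correspond to 18774556 to 26061245 whole fragments per library, recovered from their steps.

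Tendons are wrapped by a sheath whose cells include a progenitor population that divides and enters the tendon after injury. TPPP3, a small tubulin-binding protein, marks those sheath cells, and a part of them also carries the receptor PDGFRA. CD34 and Ly6a (Sca-1) are surface proteins of progenitors in many mesenchymal tissues, and lubricin, the product of Prg4, is secreted by lining cells and keeps gliding surfaces smooth. The proteins CD73 (Nt5e), CD90 (Thy1), CD105 (Eng) and CD146 (Mcam) are the surface antigens by which cultured mesenchymal stromal cells are often typed. Nestin (Nes) is an intermediate filament protein of progenitor cells. TPPP3 and nestin lie inside the cell and lubricin is secreted, so the set is a marker set and only in part one of surface proteins.

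Ly6a was higher and Cd34 was lower with DRG CM, and these were the 2 genes of the set past the threshold (1 higher and 1 lower of 8 tested, adjusted p below 0.05 in limma). Over all 11678 tested genes, 4.04% were called higher and 2.49% lower (6.53% in either direction). An unadjusted p below 0.05 in limma was reached by 19.6% of them, and limma-voom on the recovered fragments called 9.83%. Tested genes were those with a mean of at least 1 FPKM (fragments per gene length and scaled library size) over the 6 libraries. Tppp3 and Nt5e lay below that level and were not tested, and 6 genes were tested and not called. The median log2 fold change of the 8 tested genes was 0.02, against 0.0052 for all tested genes, and the median size without regard to sign was 0.15, against 0.07. The lowest and highest libraries of the 2 groups did not overlap for 5 of the 8 tested genes (Ly6a, Cd34, Pdgfra, Thy1 and Nes), where 26.0% of all tested genes showed no overlap. In bulk samples, a smaller share of cells with a transcript and less of it per cell cannot be told apart.

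**Figure D1:**
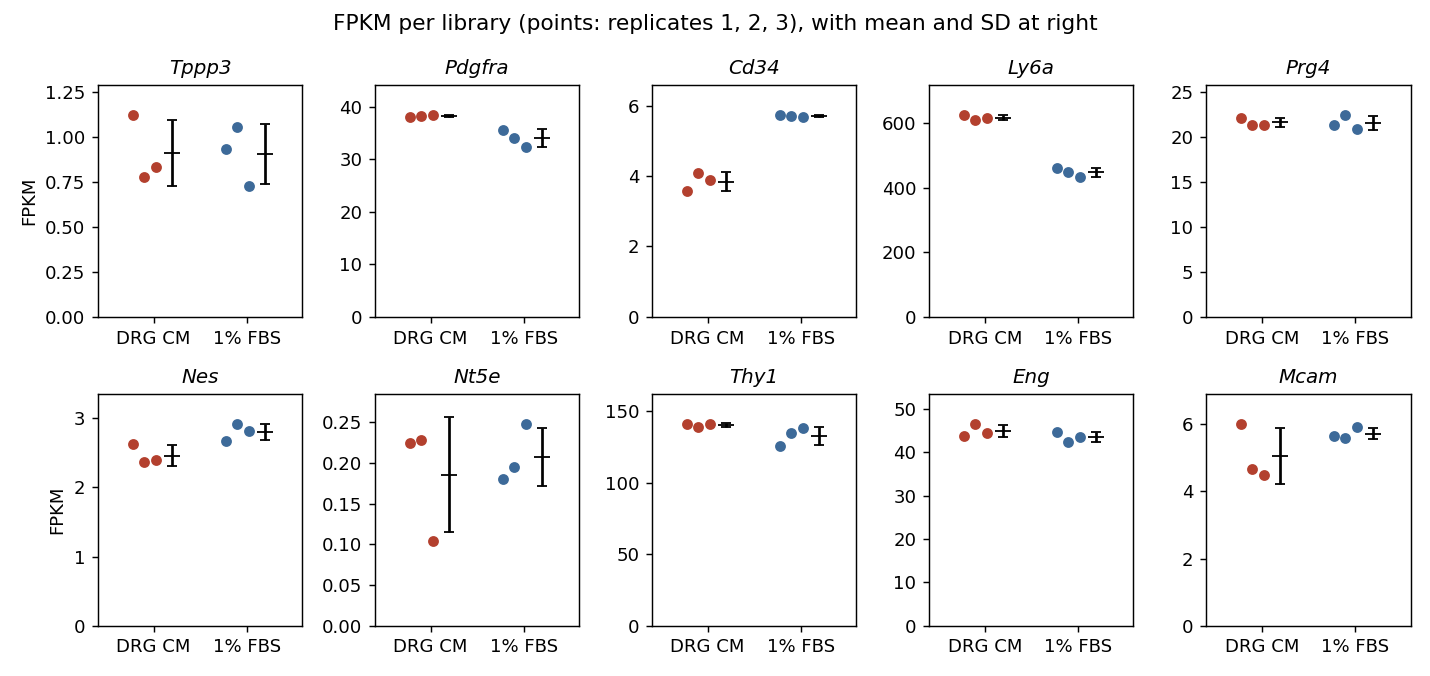
FPKM (y axis, from 0, a scale of its own for each gene) of the 10 genes in the 3 DRG CM libraries (left) and the 3 libraries in 1% FBS medium (right), with the mean and SD beside each group. Ly6a lies between 610.2 and 625 FPKM with DRG CM and between 433 and 460.4 FPKM in 1% FBS medium, and Cd34 between 3.56 and 4.08 FPKM with DRG CM and between 5.68 and 5.73 FPKM in 1% FBS medium.

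The levels of the set ran over a wide range in both media. FPKM values are scaled by gene length, here that of all annotated exons of a gene together. That length can exceed a single transcript. Cd34 has 7290 exonic bases and a longest transcript of 3063 bases, while Mcam has 3350 and 2989. Levels of different genes can thus be set side by side only roughly, and the order of near neighbours may depend on the length used. In order of the mean over the 6 libraries, Ly6a (532 FPKM) stood first, followed by Thy1 (136 FPKM), Eng (44.3 FPKM), Pdgfra (36.2 FPKM), Prg4 (21.5 FPKM), Mcam (5.39 FPKM), Cd34 (4.78 FPKM), Nes (2.63 FPKM), Tppp3 (0.906 FPKM) and Nt5e (0.197 FPKM). The mean of Ly6a was 2708 times that of Nt5e. Ranges over the 6 libraries were separate for all neighbours in this order but Mcam and Cd34, which ran from 4.50 to 6.01 FPKM and from 3.56 to 5.73 FPKM. Ly6a ranked 46th of the 24413 genes by mean level, and Thy1 ranked 262nd. Tppp3, the gene that names the lineage, ranked 11905th, with 51.2% of genes below it.

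**Figure D2:**
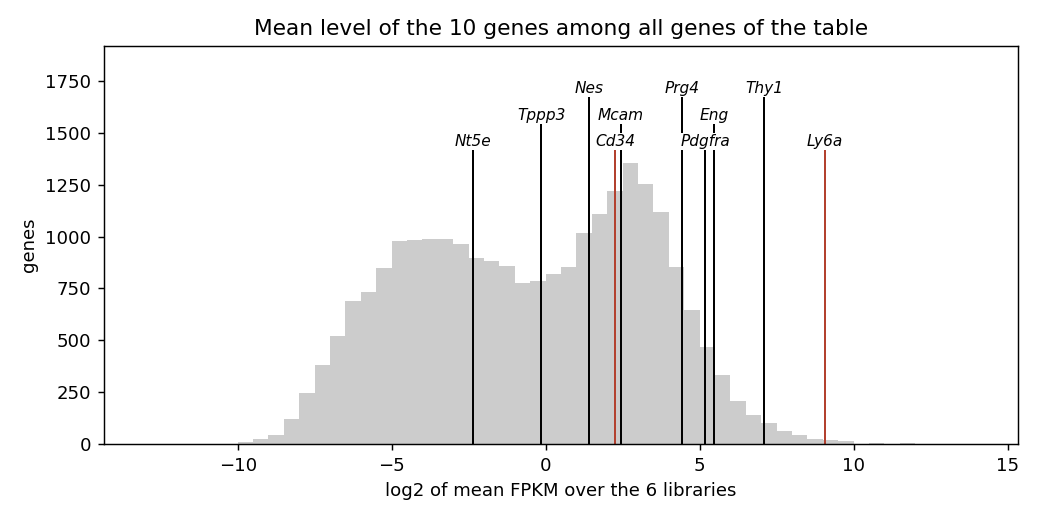
Histogram of the log2 of the mean FPKM over the 6 libraries (x axis) for the 24413 genes of the table (y axis, number of genes), with a line at each of the 10 genes, red for the 2 called ones. Ly6a and Thy1 lie in the upper tail, while Tppp3 and Nt5e lie below 0 on the log2 axis, that is below 1 FPKM.

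Tppp3, the lineage gene, was measured at 1.12, 0.777 and 0.830 FPKM in DRG CM replicates 1, 2 and 3, against 0.932, 1.05 and 0.724 FPKM in control replicates 1, 2 and 3. The groups overlapped over nearly their whole range. These levels rested on few fragments, 45, 27 and 36 with DRG CM and 40, 51 and 27 in control libraries. The ratio of the group totals, DRG CM over control and scaled for depth, was 0.995, with an exact 95% binomial interval of 0.759 to 1.30 that covers counting error only. An exact two-sided permutation test of the difference in log2(FPKM + 1) gave p = 1.0 (n = 3 each, smallest p possible 0.1). With the level filter lowered to 0.5 FPKM, limma gave a log2 fold change of 0.0037 with a 95% interval of -0.25 to 0.26 (adjusted p = 0.99), on a scale where the added 1 FPKM shrinks changes of a gene this low. Limma-voom on the recovered fragments, with no low filter and no such shrinkage, gave -0.0069 with a wider 95% interval of -0.62 to 0.60. Differences inside the wider interval are compatible with these data. It is unadjusted and not a detection limit, and its width reflects library spread as well as depth. Tppp3 (ENSMUSG00000014846) lies on chromosome 8 from 105467493 to 105471526 on the minus strand (mm10, GENCODE M21), and no exon of another annotated gene overlaps it. Its relative Tppp had 43 fragments over the 3 DRG CM libraries and 56 over the 3 control libraries.

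None of the tested genes for other proteins that bind or modify microtubules passed the test. Of the TPPP and microtubule list, 6 of 12 genes reached the level filter and 0 were called by limma (0 at an unadjusted p below 0.05, and 0 by limma-voom), with log2 fold changes from -0.04 for Map1b to 0.07 for Stmn1. The smallest adjusted p among them was 0.41, that of Stmn1, which binds free tubulin dimers.

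Ly6a, a GPI-anchored surface protein whose transcript is known to respond to interferons, had the highest level of the set and rose. It was measured at 625, 610.2 and 616 FPKM in DRG CM replicates 1, 2 and 3, against 460.4, 450.0 and 433 FPKM in control replicates 1, 2 and 3. All DRG CM libraries lay above all control libraries, and the gap between the groups was larger than the spread within either. The means were 617 ± 7.30 FPKM with DRG CM and 448 ± 13.6 FPKM in control libraries (SD, n = 3 each), a 1.38-fold difference. Its log2 fold change was 0.46 ± 0.03 SE (95% interval 0.39 to 0.54, limma adjusted p = 1.2e-04), the 68th smallest p of the 11678 tested genes. Ly6a (ENSMUSG00000075602) lies on chromosome 15 from 74994877 to 74998031 (mm10, minus strand).

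Ly6a has close relatives, and part of its transcript cannot be told from theirs. Of the 50-base stretches of its longest annotated transcript, 10.0% occur in a transcript of another gene, mostly Ly6c1 and Ly6i, while the other 9 genes of the set had 0 to 4.16%. How the authors' counting treated fragments that fit more than 1 gene is not given in the sources used here, so the values of Ly6a and Ly6c1 are uncertain to that extent. Ly6c1 had 72.2 ± 2.11 FPKM with DRG CM and 53.5 ± 4.13 FPKM in control libraries and rose by 0.43 ± 0.06 SE on the log2 scale (adjusted p = 0.0034, limma). Ly6i had 21 fragments over the DRG CM libraries and 6 over the control libraries. Of the 32 genes listed for the Ly6 family, 19 were in the table and 7 were tested, of which 3 were called higher and 0 lower (42.9% called, against 6.53% of all tested genes). The 3 are Ly6e, Ly6a itself and Ly6c1, and the list was chosen with earlier results of these data known. Ly6e, which belongs to the same chromosome 15 family, had 103 ± 2.34 FPKM with DRG CM and 60.5 ± 1.53 FPKM in control libraries, a log2 fold change of 0.76 ± 0.04 SE (adjusted p = 1.2e-05, limma). Lynx1, Cd59b, Cd59a and Plaur, the receptor of urokinase, were not called, with log2 fold changes of 0.13, 0.07, -0.20 and -0.25. Lynx1 was higher, and Cd59a and Plaur lower, without overlap of the groups (adjusted p = 0.17, 0.084 and 0.056, limma). At an unadjusted p below 0.05 were 6 of the 7 (against 19.6% of all tested genes), and limma-voom called 4 (against 9.83%). The median of the 7 was 0.13.

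The likeness of other genes to Ly6a was measured by the Pearson correlation of log2(FPKM + 1) over the 6 libraries, among 72 genes of the related and marker lists with a mean of at least 5 FPKM. Myh11, a smooth muscle myosin, and Lpl, lipoprotein lipase, came closest, each with r = 0.99. These values are a description of 6 libraries that fall into 2 groups, and any gene that separates the groups scores high.

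Cd34, which encodes a sialomucin of haematopoietic, endothelial and connective tissue progenitors, fell. It was measured at 3.56, 4.08 and 3.89 FPKM in DRG CM replicates 1, 2 and 3, against 5.73, 5.72 and 5.68 FPKM in control replicates 1, 2 and 3. The groups did not overlap, and the DRG CM libraries were the more spread. The means were 3.84 ± 0.260 FPKM with DRG CM and 5.71 ± 0.0261 FPKM in control libraries (SD, n = 3 each), so that the level with DRG CM was 0.673 of the control level. On the log2(FPKM + 1) scale the fold change was -0.47 ± 0.06 SE (95% interval -0.60 to -0.34, limma adjusted p = 0.0021), the 191st smallest p. The added 1 FPKM shrinks changes of a gene this low: limma-voom on fragments recovered from the FPKM values gave -0.58 and a pseudocount of 5 gave -0.28, both still called. The fragments behind the values were 565, 559 and 666 with DRG CM and 970, 1093 and 835 in control libraries. Cd34 (ENSMUSG00000016494) lies on chromosome 1 from 194938819 to 194961279 (mm10, plus strand), and an antisense gene, Gm16897, shares 2.03% of its exonic bases and had 27 fragments over the DRG CM libraries and 31 over the control libraries.

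The 250 bases before the Cd34 start in RefSeq (GRCm38.p6, plus strand, chr1:194938571-194938820) are shown because Cd34 is the called gene of the set with a promoter entry in the table used. No base is in capitals, since none of the 6 motifs searched occurs in this window on either strand. One motif was the core of the interferon-stimulated response element (a pair of GAAA letters with 2 free bases between). The core of the site bound by STAT factors was searched as TTCNNNGAA. The TATA box near many transcription starts was searched as TATAAA, and the GC box bound by factors of the SP family as GGGCGG. The E-box bound by factors such as MYC was searched as CACGTG, and the site of the AP-1 factors FOS and JUN as TGANTCA.
Cd34: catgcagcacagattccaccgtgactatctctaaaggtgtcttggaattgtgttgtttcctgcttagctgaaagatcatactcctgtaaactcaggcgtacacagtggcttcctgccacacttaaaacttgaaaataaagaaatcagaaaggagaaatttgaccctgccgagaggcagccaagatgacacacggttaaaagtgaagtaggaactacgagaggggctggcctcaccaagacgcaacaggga
Of 32851 RefSeq promoter windows of the same length, 2.98%, 7.02%, 12.4%, 32.7%, 6.02% and 6.75% hold these motifs in the order named, and the absence of these letters says nothing of the factors. The Cd34 window has a GC content of 46.4%, against a median of 52.4% over all windows. Of the 6 genes of the set with an entry, Nes, Nt5e and Mcam hold GC boxes (2, 4 and 5 matches, overlapping ones counted), in windows with 58.8%, 72.0% and 73.6% GC. Pdgfra and Eng hold none of the motifs.

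Pdgfra, the receptor for PDGF ligands that a part of the Tppp3 sheath cells carries, was measured at 38.1, 38.3 and 38.4 FPKM in DRG CM replicates 1, 2 and 3, against 35.6, 34.2 and 32.3 FPKM in control replicates 1, 2 and 3. The groups did not overlap, and the DRG CM libraries were nearly equal while the control libraries were spread. The log2 fold change was 0.17 ± 0.04 SE (95% interval 0.07 to 0.26), and it did not pass (limma adjusted p = 0.062). Of 18 alternatives, 14 did not call it (adjusted p up to 0.188) and 4 did. Adjusted p was 0.0067 by limma-voom on recovered fragments (which called 9.83% of all genes) and 3.17e-04 by limma-voom with no low filter (4.83% called). Limma gave 0.043 with a level filter of 5 FPKM and 0.028 without control replicate 1. Among the 14, quantile normalization gave a log2 fold change of 0.15 (adjusted p = 0.15, limma). Leaving out control replicate 3 gave 0.13 (adjusted p = 0.12, limma). Pdgfra (ENSMUSG00000029231) lies on chromosome 5 from 75152292 to 75198215 (mm10, plus strand), and opposite-strand genes Gm42802 and Gm42803 share 4.55% and 1.66% of its exonic bases. Of the other PDGF genes, 4 of 5 were tested. Pdgfd, a ligand of the beta receptor, fell to 15.9 ± 0.808 FPKM with DRG CM, against 20.3 ± 1.000 FPKM in control libraries (log2 fold change -0.33 ± 0.05 SE, adjusted p = 0.0082, limma). Pdgfa, Pdgfc and the beta receptor Pdgfrb had log2 fold changes of -0.04, -0.08 and 0.01 and were not called, with Pdgfrb at 121 FPKM with DRG CM and 120.0 FPKM in control libraries.

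Prg4, lubricin, was measured at 22.1, 21.3 and 21.3 FPKM in DRG CM replicates 1, 2 and 3, against 21.3, 22.4 and 20.9 FPKM in control replicates 1, 2 and 3. The groups overlapped. The log2 fold change was 0.0033 ± 0.04 SE (95% interval -0.09 to 0.10, limma adjusted p = 0.98), the smallest of the 8, and its sign changed with the scaling. Prg4 (ENSMUSG00000006014) lies on chromosome 1 from 150449412 to 150466165 (mm10, minus strand). Tpr, a gene on the opposite strand, shares 4.77% of the exonic bases of Prg4 and had log2 fold change -0.01. Of 12 genes of the lubricin-bearing lining, Prg4 included, 7 were tested and 0 were called by limma (1 at an unadjusted p below 0.05, and 0 by limma-voom). Their values ran from -0.15 for Hbegf, a growth factor of the EGF family, to 0.18 for Htra4, and Has2, which makes hyaluronan, had 0.09.

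Thy1, a GPI-anchored protein of fibroblasts and stromal cells, was measured at 141, 139 and 141 FPKM in DRG CM replicates 1, 2 and 3, against 126, 134 and 138 FPKM in control replicates 1, 2 and 3. The lowest DRG CM library lay just above the highest control library. On limma's scale the log2 fold change was 0.08 ± 0.04 SE (95% interval -0.01 to 0.17) and did not pass (limma adjusted p = 0.32). Without control replicate 1, the lowest library, it was 0.04, without control replicate 3 it was 0.11, and with quantile normalization 0.05, none of them called. Thy1 (ENSMUSG00000032011) lies on chromosome 9 from 44043384 to 44048579 (mm10, plus strand).

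Eng, endoglin, a co-receptor for TGF-beta and BMP ligands, was measured at 43.8, 46.5 and 44.4 FPKM in DRG CM replicates 1, 2 and 3, against 44.8, 42.4 and 43.6 FPKM in control replicates 1, 2 and 3. The groups overlapped. Its log2 fold change was 0.04 ± 0.04 SE (95% interval -0.05 to 0.13, limma adjusted p = 0.62). It was 0.018 without DRG CM replicate 2 and 0.023 without control replicate 2, but 0.060 without DRG CM replicate 1 and 0.062 without control replicate 1. Quantile normalization gave 0.0096, and none of these was called. Eng (ENSMUSG00000026814) lies on chromosome 2 from 32646595 to 32682669 (mm10, plus strand), and Fpgs on the opposite strand shares 1.51% of its exonic bases. The list of ligands, receptors and SMAD proteins that work with endoglin held 13 symbols, of which Bmp9 and Gdf2 name the same gene. Of the listed genes, 10 were tested, 1 was called higher and 2 lower, with a median of -0.08. The share called was 30.0%, against 6.53% of all tested genes. Acvrl1, the type I receptor that pairs with endoglin, fell to 22.0 ± 0.925 FPKM with DRG CM, against 25.7 ± 0.680 FPKM in control libraries (-0.22 ± 0.04 SE, adjusted p = 0.026, limma). Tgfbr2 fell by 0.32 on the log2 scale, with 63.7 ± 0.182 FPKM with DRG CM and 79.7 ± 1.79 FPKM in control libraries. Tgfbr3, betaglycan, a co-receptor of the same family as endoglin, rose by 0.44 on the log2 scale, with 29.3 ± 1.69 FPKM with DRG CM and 21.4 ± 1.82 FPKM in control libraries.

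Mcam, an adhesion molecule of perivascular and endothelial cells, was measured at 6.01, 4.66 and 4.50 FPKM in DRG CM replicates 1, 2 and 3, against 5.64, 5.60 and 5.91 FPKM in control replicates 1, 2 and 3. DRG CM replicate 1 was the highest of the 6 libraries and the other DRG CM libraries the lowest. The log2 fold change was -0.16 ± 0.09 SE (95% interval -0.37 to 0.05, limma adjusted p = 0.40), and it rested on single libraries: -0.27 without DRG CM replicate 1 (adjusted p = 0.065), -0.11 without DRG CM replicate 2 (adjusted p = 0.68) and -0.09 without DRG CM replicate 3 (adjusted p = 0.69). A pseudocount of 5, which shrinks changes of a gene this low, gave -0.09, and limma-voom on recovered fragments gave -0.18, neither of them called. Mcam (ENSMUSG00000032135) lies on chromosome 9 from 44134469 to 44142727 (mm10, plus strand), and Gm10687 on the opposite strand shares 0.507% of its exonic bases.

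Nes, nestin, was measured at 2.63, 2.36 and 2.39 FPKM in DRG CM replicates 1, 2 and 3, against 2.68, 2.92 and 2.81 FPKM in control replicates 1, 2 and 3. The groups did not overlap, though DRG CM replicate 1 lay close to control replicate 1. The log2 fold change was -0.14 ± 0.06 SE (95% interval -0.28 to 0.0087) and did not pass (limma adjusted p = 0.28). A pseudocount of 5, which shrinks changes of a gene this low, gave -0.06, and limma-voom on recovered fragments gave -0.19, neither of them called. Nes (ENSMUSG00000004891) lies on chromosome 3 from 87971078 to 87980451 (mm10, plus strand). Of 13 other intermediate filament genes, 4 were tested and 1 was called. Krt19, a keratin, fell by 0.39 on the log2 scale, with 6.58 ± 0.294 FPKM with DRG CM and 8.92 ± 0.167 FPKM in control libraries. Vim, vimentin, the main intermediate filament protein of mesenchymal cells, had a log2 fold change of 0.07 and was not called.

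Nt5e, the enzyme that turns extracellular AMP into adenosine, stood at the bottom of the set. It was measured at 0.224, 0.229 and 0.104 FPKM in DRG CM replicates 1, 2 and 3, against 0.180, 0.195 and 0.248 FPKM in control replicates 1, 2 and 3. DRG CM replicate 3 was the lowest library, and the others overlapped. These values stood for 42, 37 and 21 fragments with DRG CM and 36, 44 and 43 in control libraries. The depth-scaled ratio of the group totals was 0.884 (exact 95% binomial interval 0.672 to 1.16, counting error only), and an exact two-sided permutation test gave p = 0.80 (n = 3 each, smallest p possible 0.1). Limma-voom with no low filter gave a log2 fold change of -0.25 with a 95% interval of -0.89 to 0.39. Nt5e (ENSMUSG00000032420) lies on chromosome 9 from 88327197 to 88372092 (mm10, plus strand). Of 14 other genes of extracellular ATP and adenosine, 9 were tested, with a median of -0.25. Of the 9, 1 was called higher and 1 lower (22.2% called, against 6.53% of all tested genes). At an unadjusted p below 0.05 there were 6 of the 9 (19.6% of all tested genes), and limma-voom called 5 (9.83% of all tested genes). Ada, which breaks down adenosine, fell by 0.39 on the log2 scale, with 13.7 ± 0.478 FPKM with DRG CM and 18.3 ± 2.00 FPKM in control libraries, and Enpp1, which splits ATP, rose by 0.26 on the log2 scale. Entpd1, which feeds AMP to the enzyme of Nt5e, had a log2 fold change of -0.27 and was not called (adjusted p = 0.10, limma).

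**Figure D3:**
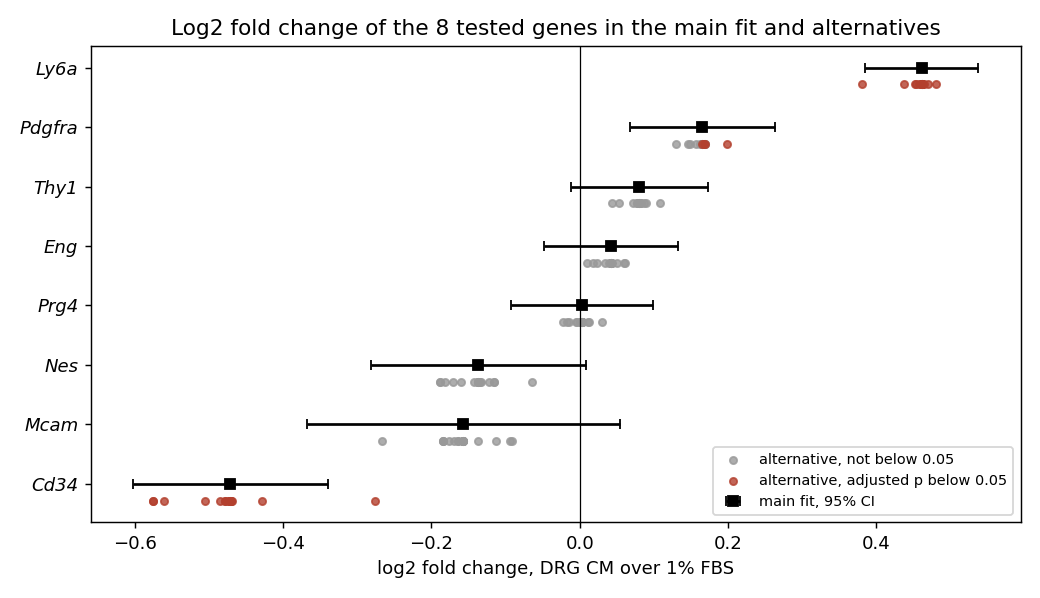
Log2 fold change of DRG CM over 1% FBS medium (x axis) for the 8 tested genes (y axis), as the reported limma value with its 95% interval (black squares and bars) and the values under the alternatives (points, red where the adjusted p was below 0.05). Ly6a ran from 0.38 to 0.48 and Cd34 from -0.58 to -0.28, red throughout, while Pdgfra held red and grey points between 0.13 and 0.20.

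Further markers of stem and progenitor cells were for the most part not called. Of 39 listed, 30 were tested, 2 were called higher, 4 lower and 24 were not called (20.0% called, against 6.53% of all tested genes), with a median of 0.0012. Aldh1a2, a retinoic acid synthesis enzyme, rose by 0.37 ± 0.07 SE on the log2 scale, with 18.7 ± 0.941 FPKM with DRG CM and 14.3 ± 1.36 FPKM in control libraries (adjusted p = 0.020, limma). Itga5, the alpha chain of a fibronectin receptor, rose by 0.23 on the log2 scale, with 125 ± 1.05 FPKM with DRG CM and 107 ± 2.55 FPKM in control libraries. Pi16, a marker of adventitial fibroblasts, fell by 0.34 on the log2 scale, with 3.20 ± 0.0289 FPKM with DRG CM and 4.33 ± 0.332 FPKM in control libraries. Cd24a, Cd200 and Cd248, 3 surface proteins, fell by 0.32, 0.19 and 0.15 on the log2 scale. Cd44 and Itgb1, antigens often typed on stromal cells, had log2 fold changes of -0.02 and 0.06 and were not called, with Itgb1 at 399.5 FPKM with DRG CM and 384 FPKM in control libraries.

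**Figure D4:**
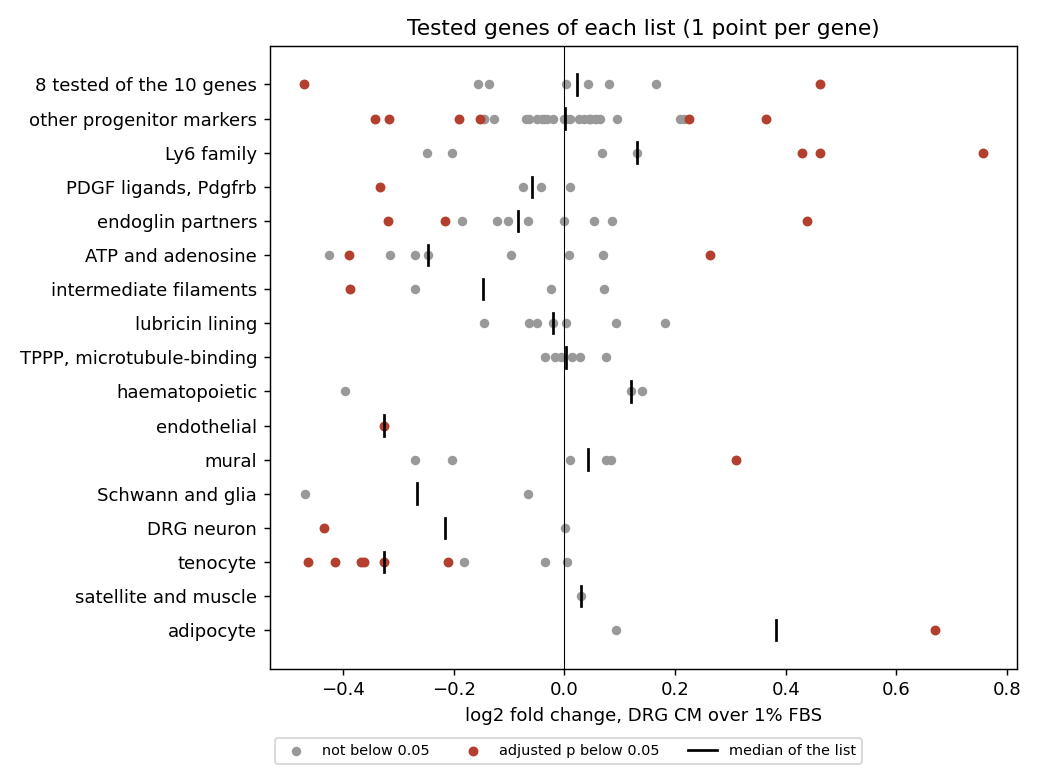
Log2 fold change of DRG CM over 1% FBS medium (x axis) for the tested genes of the set, of 8 related lists and of 8 lists of cell type markers (y axis), 1 point per gene, red where the adjusted p was below 0.05, with the median of each list as a bar. Cd34 at -0.47 and Ly6a at 0.46 stand at the ends of the top row, and 6 of 9 tenocyte markers are red and below 0.

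Cd34, Eng and Mcam are also transcripts of blood vessel cells, and Cd34 of blood cell progenitors, so the markers of those cells are given here. Of 12 endothelial markers, 10 were in the table and 1, Tek, reached 1 FPKM. Pecam1 had 7 fragments over the DRG CM libraries and 29 over the control libraries, and Cdh5, Emcn and Vwf had 5, 5 and 24 over the DRG CM libraries and 9, 1 and 30 over the control libraries. The summed level of the list was 5.39 to 5.67 FPKM with DRG CM and 6.51 to 7.23 FPKM in control libraries. Tek, the angiopoietin receptor, made up most of it and was called lower (4.50 ± 0.301 FPKM with DRG CM and 5.90 ± 0.377 FPKM in control libraries, log2 fold change -0.33, adjusted p = 0.023, limma). Without Tek the sums overlapped, at 0.760 to 1.24 FPKM with DRG CM and 0.954 to 0.999 FPKM in control libraries. Tek moved with Cd34, and its part in the fall of Cd34 was not tested. Of 12 haematopoietic markers, 9 were in the table, 3 were tested and 0 were called by limma (1, Lyz2, at an unadjusted p below 0.05, and 0 by limma-voom), and Ptprc, the pan-leukocyte gene, had 5 fragments over the DRG CM libraries and 1 over the control libraries.

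Of 10 mural cell markers, 6 were tested and 1, Myh11, was called by limma (16.7%, against 6.53% of all tested genes). Myh11 had 18.3 ± 0.393 FPKM with DRG CM and 14.6 ± 0.132 FPKM in control libraries. Limma-voom called 2 of the 6 (against 9.83% of all tested genes), and 4 had an unadjusted p below 0.05 in limma (against 19.6%). The 4 went both ways. Myh11 and Acta2 were higher with DRG CM (log2 fold changes 0.31 and 0.08), and Notch3 and Des were lower (-0.20 and -0.27). The summed level, nearly all of it Acta2, was 2462 to 2496 FPKM with DRG CM and 2266 to 2417 FPKM in control libraries. Without Acta2, the sums overlapped at 154 to 160.4 FPKM with DRG CM and 154 to 157 FPKM in control libraries. Most of that remainder was Pdgfrb, at 121 FPKM with DRG CM and 120.0 FPKM in control libraries, so it says little of the other markers. Rgs5, a marker of pericytes, had 145 fragments over the DRG CM libraries and 296 over the control libraries. Schwann cell and glia markers summed to 3.62 to 4.98 FPKM with DRG CM and 5.12 to 5.61 FPKM in control libraries, and 2 were tested, with 0 called by limma (1, S100b, at an unadjusted p below 0.05, and 0 by limma-voom). Without S100b their sums overlapped, at 2.48 to 2.88 FPKM with DRG CM and 2.85 to 3.00 FPKM in control libraries. Of 16 neuron markers, 10 were in the table and 2 tested, and Tubb3, a tubulin, fell by 0.43 on the log2 scale, with sums of 4.23 to 5.18 FPKM with DRG CM and 4.37 to 5.75 FPKM in control libraries when Tubb3 was left out. Of 8 adipocyte markers, 5 were in the table and 2 were tested, of which Lpl rose by 0.67 on the log2 scale and Pparg was not called. Fabp4, a fatty acid binding protein under the level filter, had 0.829 ± 0.130 FPKM with DRG CM and 0.391 ± 0.0450 FPKM in control libraries, with 238 fragments over the DRG CM libraries and 121 over the control libraries and no overlap. Without Lpl the sums of the list stayed apart by a narrow margin, at 2.308 to 2.629 FPKM with DRG CM and 1.531 to 2.305 FPKM in control libraries.

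Tenocyte markers, genes listed for the tendon cell, had 6 lower, 0 higher and 3 not called of 9 tested, with a median of -0.33. The 6 were Fmod, Tnmd, Thbs4, Egr1 and the collagen genes Col1a1 and Col1a2. Of the 3 not called, Mkx and Tnc had log2 fold changes of 0.0053 and -0.04, with overlap of the groups (adjusted p = 0.98 and 0.67, limma). The share called was 66.7%, against 6.53% of all tested genes. Tnmd, a tendon membrane protein, fell by 0.41 on the log2 scale, with 16.3 ± 1.86 FPKM with DRG CM and 22.0 ± 0.850 FPKM in control libraries. Scx, the gene behind the GFP reporter, had 11.5 FPKM with DRG CM and 13.2 FPKM in control libraries and was not called (adjusted p = 0.073, limma). The FPKM of Scx and Tnmd lay above that of Tppp3 in both media, in cells that the labels call Tppp3+ and whose GFP gate, which bears on the Scx level, is not known here.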

How the data were processed

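RNA-seq was analysed from 6 libraries of sorted tendon cells, 3 per group. Per the file headers, the authors deposited FPKM values, 1 column per library, with 0 columns left unused. CASAVA, HISAT2 2.0.5 and mm10 are named in the submitters' processing notes, with no role. Which counter, annotation release and filters were used is not stated there, and the labels' protocol describes both directional and non-directional libraries without saying which was made, so fragments of overlapping antisense genes may not be told apart. Within each gene the deposited FPKM values were whole multiples of 1 fragment (tolerance 0.01 fragment, 100.0% of 24413 genes; 23574 with the GENCODE M21 exon length). The recovered fragments summed to 18774556 to 26061245 per library. Fragment totals given for single genes are not scaled for depth. The divisors behind the FPKM values were proportional to median-of-ratios size factors of those fragments (largest relative deviation 8.9e-16), so the values were already scaled between libraries. No 2 libraries within a group matched within sampling noise (chi-square over degrees of freedom 3.02 to 6.55).

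Values were tested as log2(FPKM + 1) with limma 3.58.1 in R 4.3.3 (linear model, moderated with a robust trended prior; two-sided; no covariate) over the 11678 genes that averaged 1 FPKM or more. P-values were Benjamini-Hochberg adjusted over those genes with a threshold of 0.05. The fold change on this scale understates changes of low genes. The function was tested on simulated counts with a single fixed dispersion and with changes larger than most of those in the set. Its power for smaller changes was not tested. Python 3.11.15, pandas 2.3.3 and scipy 1.17.1 were used for the rest. Coordinates come from GENCODE M21, promoters from RefSeq.

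The genes and lists were chosen with earlier results of these data known, and no list was tested as a set. All 10 genes of the set are named. From other lists up to 8 called genes by size of change could be named, and from marker lists up to 3 with the highest level. Further genes (among them those not called, the defining markers at low counts and the neighbours of the set) were named after their values were seen. Alternatives were other filters, pseudocounts, scalings and priors, limma-voom on the recovered fragments, the replicate number as a block and leaving out each library. Scaling to the total fragments, and limma-voom without a low filter, were chosen after seeing the data.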

Additional observations from a re-analysis of the deposited data

How the results depend on the processing

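Ly6a and Cd34 kept direction and call in the 18 and 17 alternatives that could test them, Ly6a from 0.38 to 0.48 and Cd34 from -0.58 to -0.28. With a level filter of 5 FPKM, Cd34 was not tested and the set had 0 genes called lower. The number called higher was 2, with Pdgfra added, under that filter, under limma-voom on recovered fragments and under limma-voom with no low filter, and ran from 1 to 2 when single libraries were left out. Prg4, never called, changed sign with quantile normalization (-0.022), with scaling to total fragments (-0.0046), and when single libraries were left out (-0.017 to 0.030). Tppp3 had -0.0069 under limma-voom with no low filter. The causes were not tested.

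Of the genes of the other lists, 25 were called in the reported fit, which called 6.53% of all tested genes. The count was 16 with no low filter, 16 with the replicate block and 14 to 22 when single libraries were left out. It was 32 by limma-voom and 35 by limma-voom with no low filter. The number of list genes tested changed with the level filter. Over all genes, 763 calls became 492 with no low filter (24413 tested), 1148 by limma-voom, 1179 by limma-voom with no low filter, and 394 to 678 when single libraries were left out. Libraries of the 2 groups with the same replicate number did not deviate together (r from -0.095 to -0.008, against -0.03 to 0.07 for other pairs, and no library correlated best with its own number). With the replicate block 390 genes were called, Ly6a and Cd34 among them (adjusted p = 0.0042 and 0.018). Rescaling by size factors left the number of calls at 763, since the deposited values already carried such factors. Depth limits Tppp3 and Nt5e, with 21 to 51 fragments per library.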
